A study of Mus musculus with 9 samples.

Results

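Described here are 10 genes of iron uptake, storage, release from storage and export, with its regulation (Ireb2) and haem breakdown (Hmox1). They are Tfrc, Trf, Steap3, Slc11a2, Fth1, Ftl1, Ncoa4, Slc40a1, Ireb2 and Hmox1. They were chosen by symbol, and all 10 were found among the 54532 genes of the count table, each on 1 row. At postnatal day 12, RNA was taken from the enamel organs of the first molars of male mice, 5 ELA and 4 control, with 1 library per mouse. ELA (early life adversity) pups were raised from postnatal day 2 to day 12 with limited bedding and nesting material, and control pups in standard cages. The study left its lightest ELA pups out of its later analyses. The sequenced ELA pups still weighed less on average than the controls, and the part of body weight was not tested here. Pups of both groups carried Crh-IRES-Cre, which expresses Cre from the gene of a stress hormone, and the Cre-dependent Ai14 tdTomato reporter, on a C57BL/6 background. The title of each mouse is used as its name: ELA titles start with t and control titles with c. The labels give no meaning for the numbers in the titles, such as t-203 and t-205. Mice that share one may or may not be littermates. For qPCR, the study took males from 2 control litters (n = 4) and 2 ELA litters (n = 5). The sequenced mice have the same numbers and 2 title numbers per group, but the study does not tie these to litters. If they are litters, each group holds only 2 of them. The tests treat each mouse as independent, and p-values measure only the spread between these libraries.

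Most cells take up iron bound to transferrin through the transferrin receptor, reduce it in the endosome and pass it to the cytosol. There it is used, stored in ferritin or exported by ferroportin. Iron regulatory proteins sense cytosolic iron and bind short RNA hairpins, the iron-responsive elements: bound to the 5′ end of an mRNA they block its translation, and bound to the 3′ UTR of Tfrc they keep the mRNA from decay. In rodents, maturation-stage ameloblasts of the incisor are known for their ferritin and for the iron that they add to the pigmented incisor enamel, and the molars studied here lack that pigment.

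Of the 10 genes, 5 held an iron-responsive hairpin in a UTR, and their sequences are shown because they are the element through which these genes are tied to each other. The search took the loop CAGTGN with an unpaired C placed 5 bases before it and at least 4 of those 5 stem positions paired to the bases after the loop, on the transcript strand only, of coding transcripts in GENCODE M21 (mouse build GRCm38). In 21901 coding genes, 0.941% held a match in the 5′ UTR and 3.98% in the 3′ UTR. The capitals mark the loop of 6 bases.
Fth1 5′ UTR, chr19:9982732-9982761, plus strand: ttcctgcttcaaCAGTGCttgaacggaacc
Ftl1 5′ UTR, chr7:45459778-45459807, minus strand: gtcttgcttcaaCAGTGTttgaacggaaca
Slc40a1 5′ UTR, chr1:45925464-45925493, minus strand: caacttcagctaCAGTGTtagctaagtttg
Slc11a2 3′ UTR, chr15:100395152-100395181, minus strand: agccatcagagcCAGTGTgtttctatggtt
Tfrc 3′ UTR, chr16:32631219-32631248, plus strand: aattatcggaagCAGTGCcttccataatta
Tfrc 3′ UTR, chr16:32631598-32631627, plus strand: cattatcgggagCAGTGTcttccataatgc
Tfrc 3′ UTR, chr16:32631663-32631692, plus strand: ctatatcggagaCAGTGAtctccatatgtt
Tfrc 3′ UTR, chr16:32631710-32631739, plus strand: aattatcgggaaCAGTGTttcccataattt
The ferritin subunits and ferroportin held theirs in the 5′ UTR, and Tfrc and Slc11a2 in the 3′ UTR. The Slc11a2 match had 4 paired stem positions. How many Slc11a2 transcripts carry it was not counted, and counts per gene do not separate transcripts. The other 7 matches had 5 paired positions. A match is a description of the sequence, and read counts do not measure translation.

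The ELA libraries held 18056774 to 32110160 counts in total and the control libraries 18683431 to 20831736. Values are CPM (counts per 1e6 reads of TMM-scaled library size) unless FPKM is named, and intervals of fold changes cover 95%. The tissue label was checked against ameloblast markers: 5 secretory-stage genes summed to 71283 to 129904 CPM in ELA and 50304 to 64534 CPM in control mice, and 10 maturation-stage genes to 25760 to 44466 CPM in ELA and 30998 to 42446 CPM in control mice. ELA library t-203-1-4 stood apart, with 12 markers of nervous tissue at 814 CPM in sum, against 98.9 to 141 CPM in the other 4 ELA libraries and 91.5 to 123 CPM in the controls. The secretory-stage sum did not overlap between the groups. It was made up mainly of Ambn and Amelx (ELA means 71524 and 25782 CPM). Their log2 fold changes were 0.53 and 1.56, and that of Enam was 5.30. The other members, Mmp20 and Sp6, were nearly level, at 0.08 and 0.15. The part of this sum in the values of the iron genes was not tested. The first principal component, with 32.9% of the variance, also set library t-203-1-4 apart. The second, with 20.3%, had its lowest value in ELA library t-203-1-5 (-33.6) and its highest in ELA library t-205-1-1 (43.6).

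None of the 10 iron genes passed the adjusted p of 0.05 in edgeR, where 0.0629% of the 15909 genes tested did (10 genes). None passed in DESeq2 (0.736% of 18754 genes) or in limma-voom either. At an unadjusted p below 0.05, Tfrc and Ftl1 were higher in ELA and no gene of the 10 was lower, against 3.56% higher and 2.89% lower (6.44% in either direction) among all genes. In the list, 7 log2 fold changes were above 0 and 3 below, with a median of 0.12, and over all genes 52.6% were above 0 with a median of 0.01. The ranges of the ELA and control mice overlapped for each of the 10 genes. Over all genes tested, 2.67% did not overlap.

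**Figure D1:**
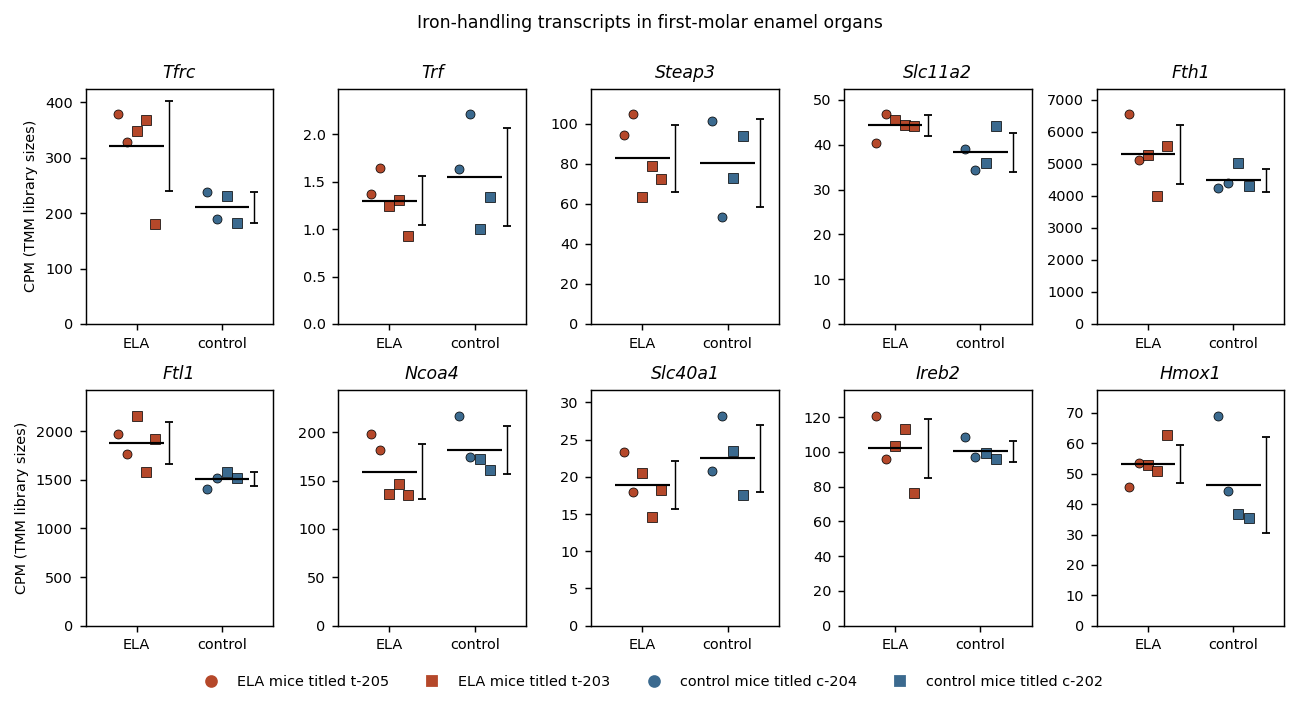
CPM (vertical axis, from 0, TMM library sizes) of the 10 iron genes in 5 ELA mice (left, red) and 4 control mice (right, blue), with 1 point per mouse, a line at each group mean and a bar of 1 SD beside it; circles and squares separate the title numbers. For Tfrc 4 ELA mice lie above all controls and 1, t-203-1-5 at 181 CPM, lies below them, and for Ftl1 4 of 5 ELA mice lie above all controls.

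The uptake genes come first. Tfrc encodes transferrin receptor 1, which binds iron-loaded transferrin at the cell surface, and lies on chromosome 16 from 32608920 to 32632794. It stood at 379 and 329 CPM in ELA mice t-205-1-1 and t-205-1-3 and at 349, 368 and 181 CPM in ELA mice t-203-1-3, t-203-1-4 and t-203-1-5, against 238, 189.8, 230.3 and 183 CPM in control mice c-204-1-1, c-204-1-2, c-202-1-1 and c-202-1-2. Of the ELA mice, 4 were above every control mouse, and t-203-1-5 was below every control mouse. The means were 321 ± 80.7 CPM in ELA (SD, n = 5) and 210.2 ± 27.8 CPM in control mice (SD, n = 4). The log2 fold change was 0.61 (standard error 0.21, interval 0.16 to 1.06), or 1.53-fold, with an unadjusted p of 0.012 and an adjusted p = 0.564 from edgeR, so the difference did not pass. Without t-203-1-4, the library with the nervous tissue markers, it was 0.56 (adjusted p = 0.723, edgeR). A log2 fold change of this size or larger, in either direction, was found for 8.76% of all genes tested.

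The Tfrc value rested on whether mouse t-203-1-5 was counted. Without it the log2 fold change was 0.76, with an adjusted p of 0.114 in edgeR, where 0.0127% of genes passed, 0.0965 in limma-voom, and 6.7e-05 in DESeq2, where 1.2% of genes passed. With all 9 mice the adjusted p was 0.236 in DESeq2. The DESeq2 and limma-voom fits without this mouse were chosen after its Tfrc value was seen and are no independent evidence. Its library was the deepest and lay lowest on the second principal component. Among the ELA mice it also had the highest summed level of 9 osteoclast markers, 772 CPM against 221 to 509 CPM in the other 4 ELA mice and 518 to 907 CPM in the controls. For 10 markers of dental mesenchyme it had 23384 CPM against 12005 to 19035 CPM in the other 4 ELA mice and 15699 to 31014 CPM in the controls. The part of these in the Tfrc value was not tested.

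Red cell precursors, macrophages and osteoclasts also handle iron, and small amounts of them can come with a dissected enamel organ. In bulk RNA, fewer cells of a type and less RNA per cell cannot be told apart. Of 9 erythroid markers tested, 8 had a negative log2 fold change (median -0.87), and their summed level was 173 to 406 CPM in ELA and 374 to 890 CPM in control mice. Hbb-bs, the most abundant of them (a beta globin), was at 72.4 to 183 CPM in ELA and 186 to 438 CPM in control mice, with an adjusted p of 0.442 in edgeR and 0.0387 in DESeq2. Of 8 osteoclast markers tested, 8 had a negative log2 fold change (median -0.59), with sums of 221 to 772 CPM in ELA and 518 to 907 CPM in control mice. The 10 macrophage markers showed 4 positive and 6 negative log2 fold changes (median -0.002), with sums of 213 to 296 CPM in ELA and 211 to 296 CPM in control mice. The lowest ELA sum of each of these 3 lists was that of t-203-1-4, the library with the nervous tissue markers. In the other 4 ELA mice the sums were 222 to 406 (erythroid), 399 to 772 (osteoclast) and 225 to 296 CPM (macrophage). Of 10 markers of dental mesenchyme and fibroblasts, 9 had a negative log2 fold change (median -0.52), with sums of 12005 to 23384 CPM in ELA and 15699 to 31014 CPM in control mice. None of the 10 passed the adjusted p in edgeR, 5 were lower at an unadjusted p below 0.05, and 3 (Col3a1, Lum and Postn) passed in DESeq2, with lower ELA means. Over all genes tested, 2.89% were lower at an unadjusted p below 0.05 in edgeR, and 0.736% passed in DESeq2 in either direction. None of the markers in these lists was at 0 in all libraries. Their part in the values of the 10 iron genes was not tested.

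Trf encodes transferrin, the plasma protein that carries iron and is made mainly by the liver. On chromosome 9 from 103204001 to 103230444, it was close to the limit of detection, with 20 to 46 reads per library. Its levels were 0.927 to 1.64 CPM in ELA and 1.00 to 2.22 CPM in control mice. On the log2 scale ELA differed from control by -0.26, with an interval of -0.98 to 0.46 (adjusted p = 0.999, edgeR). Both groups spanned about the same low range, and the interval reached from 0.508 to 1.38 times the control level. The receptor mRNA was abundant and the mRNA of its ligand barely detected in the same libraries.

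Steap3 encodes the ferrireductase of endosomes, described in red cell precursors, and Slc11a2 encodes DMT1, which carries the reduced iron across the endosomal membrane. Steap3, on chromosome 1 from 120190757 to 120272705, stood at 94.2, 105.0, 63.5, 79.0 and 72.3 CPM in the ELA mice, in the order given for Tfrc, against 101.4, 53.2, 72.9 and 94.1 CPM in the controls. The groups overlapped almost wholly, with a log2 fold change of 0.04 (interval -0.40 to 0.48, adjusted p = 0.999 from edgeR) whose sign depended on single mice. Slc11a2, on chromosome 15 from 100387898 to 100425072, stood at 40.4, 46.9, 45.6, 44.5 and 44.2 CPM in the ELA mice, against 39.0, 34.3, 36.0 and 44.2 CPM in the controls. It was the steadiest of the 10 genes among ELA mice, with a coefficient of variation of 5.46%, and 3 ELA mice lay above every control mouse. Its log2 fold change was 0.21 (interval -0.04 to 0.46, adjusted p = 0.847 from edgeR).

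Ferritin is a shell of heavy and light chains around stored iron: the heavy chain oxidizes iron and the light chain aids the mineral core. Fth1, the heavy chain gene, lies on chromosome 19 from 9982703 to 9985092 in the table and from 9980598 to 9985098 in GENCODE M21. It stood at 6568, 5133, 5271, 3998 and 5548 CPM in the ELA mice, against 4245, 4406, 5029 and 4297 CPM in the controls. The mean was 5303 ± 921 CPM in ELA (SD, n = 5) and 4494 ± 363 CPM in control mice (SD, n = 4). Mouse t-203-1-4, whose library held the nervous tissue markers, was below all controls, and the other 4 ELA mice were above all of them. The log2 fold change was 0.24 (interval -0.12 to 0.60, adjusted p = 0.928 from edgeR), and 0.33 without t-203-1-4 (adjusted p = 0.873, edgeR). Without t-205-1-1, the highest mouse, it was 0.16 (adjusted p = 0.91, edgeR), and without both t-205 mice 0.14.

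Ftl1, the light chain gene on chromosome 7 from 45457944 to 45459884, stood at 1972, 1768, 2162, 1579 and 1923 CPM in the ELA mice, against 1405, 1524, 1580 and 1515 CPM in the controls. Of the ELA mice 4 were above every control mouse, and t-203-1-4 lay just under the highest control. The mean was 1881 ± 219.7 CPM in ELA (SD, n = 5) and 1506 ± 73.2 CPM in control mice (SD, n = 4). The log2 fold change was 0.32 (interval 0.02 to 0.62, unadjusted p = 0.0373 and adjusted p = 0.714 from edgeR), and 0.38 without t-203-1-4 (adjusted p = 0.678, edgeR). As percent of all counts, the 2 ferritin subunits together took 0.582 to 0.775 in ELA and 0.573 to 0.648 in control libraries.

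Ferritin genes have many copies in the mouse genome, and reads can be split among them. The table held 14 further ferritin genes and pseudogenes by name, of which 10 had no read in any library. The exception of some size was Ftl1-ps1, whose transcript of 938 bases matched that of Ftl1 at 96.6% of positions. It had 25.0, 33.3, 36.7, 27.7 and 59.6 CPM in the ELA mice, against 22.3, 25.1, 32.8 and 31.3 CPM in the controls. It was highest in mouse t-203-1-5, and its log2 fold change was 0.39 (interval -0.13 to 0.91, adjusted p = 0.893 from edgeR). How the counting program treated reads that match both is not given in the sources used here, so the split between Ftl1 and Ftl1-ps1 is uncertain.

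Ncoa4 encodes the receptor that takes ferritin to the lysosome, where its iron is set free. On chromosome 14 from 32159865 to 32179855, it stood at 198, 181, 136, 146 and 135 CPM in the ELA mice, against 217, 174, 173 and 161 CPM in the controls. The 3 ELA mice titled t-203 were below every control mouse, and the 2 titled t-205 were within the range of the controls. The log2 fold change was -0.18 (interval -0.53 to 0.16, adjusted p = 0.968 from edgeR), and it was 0.07 without the mice titled t-203.

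Export has 1 gene in the list. Slc40a1, on chromosome 1 from 45908068 to 45926523, encodes ferroportin, the only known iron exporter of mammalian cells. It stood at 23.3, 17.96, 20.5, 14.7 and 18.2 CPM in the ELA mice, against 20.7, 28.2, 23.5 and 17.5 CPM in the controls. The mean was 18.9 ± 3.21 CPM in ELA (SD, n = 5) and 22.5 ± 4.53 CPM in control mice (SD, n = 4), and the groups overlapped. The log2 fold change was -0.25 (interval -0.63 to 0.13, adjusted p = 0.931 from edgeR), and it was negative in all 23 alternative fits. Its size rested on single title numbers and mice: it was -0.12 without control mouse c-204-1-2, -0.12 without both c-204 mice, -0.13 without the t-203 mice and -0.38 without the c-202 mice.

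Ireb2 encodes iron regulatory protein 2, which binds the hairpins shown earlier, and Hmox1 encodes haem oxygenase 1, which frees iron from haem. Ireb2, on chromosome 9 from 54863789 to 54912530, had 76.3 to 121 CPM in ELA and 95.7 to 109 CPM in control mice. The ELA mean of 101.9 CPM and the control mean of 100.2 CPM differed by 0.025 on the log2 scale (interval -0.28 to 0.33, adjusted p = 0.999 from edgeR). Its spread was wider among the ELA mice, with a coefficient of variation of 16.9% against 5.84% in controls, and t-203-1-5 was the lowest of the 9 mice, as it was for Tfrc. Hmox1, on chromosome 8 from 75093621 to 75100589, stood at 45.5, 53.5, 52.9, 51.0 and 62.8 CPM in the ELA mice, against 69.2, 44.2, 36.6 and 35.4 CPM in the controls. The highest and the lowest of the 9 mice were both controls, and the log2 fold change was 0.20 (interval -0.22 to 0.62, adjusted p = 0.985 from edgeR). Without the controls titled c-204 it was 0.56, and without those titled c-202 it was -0.10.

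**Figure D2:**
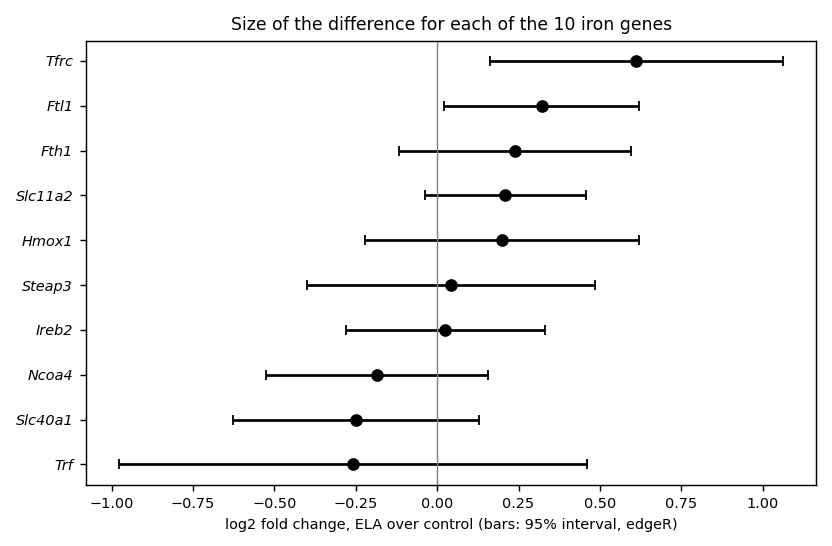
Log2 fold change of ELA over control (horizontal axis) for the 10 iron genes, ordered by size, with points at the edgeR estimate and bars over its 95% interval. The unadjusted intervals of Tfrc (0.16 to 1.06) and Ftl1 (0.02 to 0.62) lie above 0, and those of the other 8 genes include 0.

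Per length, the 10 genes covered a wide span of abundance. FPKM (CPM divided by the gene length of the table in kilobases) averaged 5709 over the 9 mice for Fth1 and 1279 for Ftl1, which ranked 9 and 22 of all genes in the control mice. Next came Tfrc at 44.0 FPKM, Hmox1 at 28.6, Ncoa4 at 18.1, Steap3 at 14.3, Ireb2 at 10.7, Slc11a2 at 6.56, Slc40a1 at 2.28 and Trf at 0.425 FPKM. The neighbours from Tfrc down to Ireb2 had ranges over the mice that overlapped, so that their order is only that of the means. Hmox1 was above Ncoa4 and Ncoa4 above Steap3 in each of the 9 mice. The order also rests on the deposited lengths, such as 1751 bases for Hmox1 and 9365 for Ncoa4. In CPM the mean of Ncoa4 (159 in ELA, 181 in control mice) was above that of Hmox1 (53.2 and 46.4). All other neighbours in this order did not overlap.

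**Figure D3:**
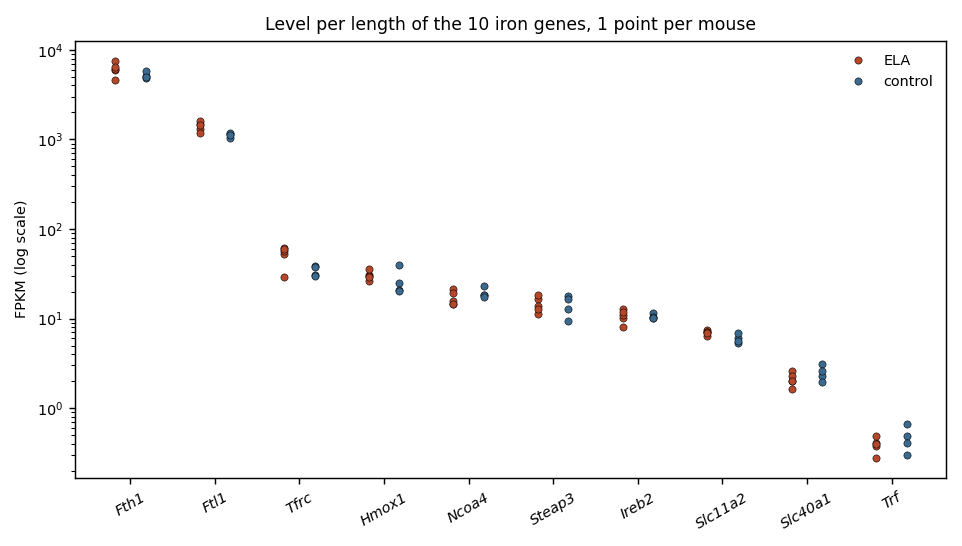
FPKM (vertical axis, log scale) of the 10 iron genes ordered by their mean, with 1 point per mouse, ELA left and control right for each gene. The ferritin genes Fth1 (mean 5709) and Ftl1 (mean 1279) stand far above Tfrc (44.0), and Trf (0.425) stands lowest.

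Ratios within a library do not depend on how libraries are scaled to each other. Per read of Slc40a1 there were 16.3, 18.3, 17, 25.1 and 9.92 reads of Tfrc in the ELA mice, against 11.5, 6.72, 9.80 and 10.4 in the controls. The receptor was thus higher relative to the exporter in 4 ELA mice than in any control, and t-203-1-5 lay among the controls. The mean log2 ratio was 4.05 ± 0.48 in ELA and 3.23 ± 0.34 in control mice (SD), a difference of 0.82 with p = 0.0317 in a two-sided exact permutation test. Adjusted over the 3 ratios computed, that permutation p was 0.0952. With groups this small, the unadjusted p of this test can change only in coarse steps.

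Tfrc over Fth1 had a mean log2 ratio of -4.08 ± 0.54 in ELA and -4.42 ± 0.18 in control mice (exact permutation p = 0.278, adjusted p = 0.381). Again 4 ELA mice were above all controls and t-203-1-5 was below them. Both Tfrc ratios were highest in t-203-1-4, the library with the nervous tissue markers. Without it the difference was 0.67 for Tfrc over Slc40a1 (exact permutation test, adjusted p = 0.257) and 0.19 for Tfrc over Fth1 (exact permutation test, adjusted p = 0.686). Without t-203-1-5 the differences were 1.00 and 0.57. Every remaining ELA mouse then lies above every control by the choice of the mouse left out, so no test is read from that. Fth1 over Ftl1, the balance of heavy and light chain reads, was 3.33, 2.90, 2.44, 2.53 and 2.88 in the ELA mice, against 3.02, 2.89, 3.18 and 2.84 in the controls. Its mean log2 ratio differed by -0.09 (exact permutation p = 0.381, adjusted p = 0.381), less than the SD of 0.18 among ELA mice.

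**Figure D4:**
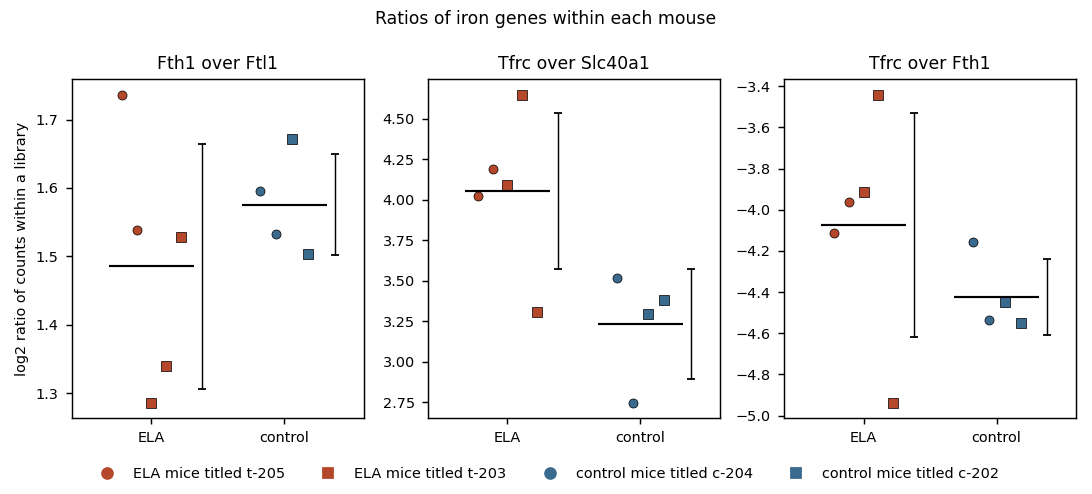
Log2 ratio of read counts within a library (vertical axes, each with its own range) for Fth1 over Ftl1, Tfrc over Slc40a1 and Tfrc over Fth1 in 5 ELA mice (left, red) and 4 control mice (right, blue), with a line at each mean and a bar of 1 SD. In both Tfrc ratios 4 ELA mice lie above all controls and mouse t-203-1-5 lies apart from the other ELA mice.

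The wider network of iron handling was read from 97 further genes, of which 87 had enough counts for the test. None passed the adjusted p in edgeR (0.0629% of all genes did) or in DESeq2, and 4 were higher and 1 lower at an unadjusted p below 0.05, against 3.56% and 2.89% of all genes. Of the 87, 46 log2 fold changes were positive and 41 negative (median 0.02). The groups did not overlap for 3 of the 87 genes, Slc39a14, Hspa9 and Pcbp3, against 2.67% of all genes.

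Among 15 other genes of iron uptake and release, 9 were above 0. Slc39a14 encodes ZIP14, a carrier of iron and other metals, and was at 244 to 312 CPM in ELA and 186 to 229.5 CPM in control mice, with all 5 ELA mice above all controls (log2 fold change 0.36, unadjusted p = 0.0201, adjusted p = 0.632 from edgeR). Tfr2, the second transferrin receptor, known for iron sensing in liver, was a low transcript at 3.07 to 7.17 CPM in ELA and 1.95 to 3.60 CPM in control mice. Of the ELA mice 4 were above every control mouse, and its log2 fold change was 0.96 (unadjusted p = 0.00901, adjusted p = 0.501 from edgeR). Cybrd1, a ferric reductase of the plasma membrane, was at 39.2 to 59.8 CPM in ELA and 47.5 to 74.3 CPM in control mice (log2 fold change -0.33, adjusted p = 0.83 in edgeR).

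The 6 tested genes of storage and cytosolic iron chaperones had 3 positive and 3 negative log2 fold changes (median 0.01). Pcbp3, a member of the poly(rC)-binding protein family, which holds iron chaperones, was at 15.1 to 20.5 CPM in ELA and 12.4 to 14.6 CPM in control mice (log2 fold change 0.27, adjusted p = 0.843 from edgeR). Glrx3 and Pcbp4, which were next by p, had log2 fold changes of -0.08 and -0.04. Ftmt, the mitochondrial ferritin gene, had no read in any library. Of 11 genes of the iron regulatory proteins and the hepcidin axis, 7 were below 0. They included Fbxl5 (-0.25), which marks iron regulatory protein 2 for breakdown, and Erfe (-0.77), the erythroferrone gene, at 0.274 to 1.37 CPM in ELA and 0.916 to 1.82 CPM in control mice. Bmp6, a ligand that drives hepcidin in liver, had a log2 fold change of 0.35, and the adjusted p of these 3 genes was 0.853 to 0.942 in edgeR.

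Haem handling showed no called gene: of 12 tested genes of haem transport and breakdown, 8 were below 0 (median -0.05), and Flvcr1, Blvra and Abcg2, the nearest to a difference by p, had log2 fold changes of 0.18, -0.18 and -0.12. Of 15 genes of mitochondrial iron import and haem synthesis, 7 were above 0. Alas2, the haem synthesis enzyme of red cell precursors, was at 9.38 to 16.7 CPM in ELA and 12.8 to 38.5 CPM in control mice (log2 fold change -0.87, unadjusted p = 0.0195, adjusted p = 0.632 from edgeR), and it is also 1 of the erythroid markers described earlier. Alas1, the form of other cells, and Slc25a39, a mitochondrial carrier, went the other way, with log2 fold changes of 0.23 and 0.28 (adjusted p = 0.846 and 0.742 from edgeR). Of 28 genes of iron-sulfur cluster assembly, 19 were above 0 (median 0.04). Hspa9, the mitochondrial chaperone that hands on new clusters, was at 294 to 358 CPM in ELA and 240.5 to 291 CPM in control mice, with all 5 ELA mice above all controls (log2 fold change 0.29, unadjusted p = 0.0343, adjusted p = 0.702 from edgeR). Narfl (0.19) and Nubpl (-0.25), which also serve cluster assembly, were next by p.

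**Figure D5:**
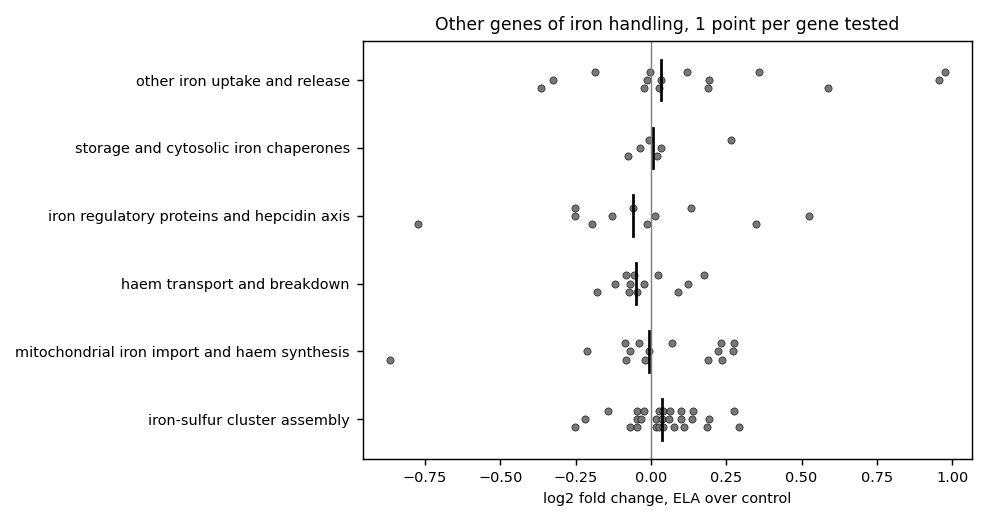
Log2 fold change of ELA over control (horizontal axis) for 87 further genes of iron handling in 6 groups, with 1 grey point per gene and a black line at the median of each group; vertical offsets within a group only separate the points. The medians lie between -0.06 and 0.04, and no gene passed the adjusted p in edgeR.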

How the data were processed

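The deposited counts, whole numbers for each Ensembl gene, cover 9 libraries (5 ELA, 4 control). CASAVA, HISAT and HISAT2 are the tools in the submitters' processing notes, with no version. Genome build, strand setting and counting program were not given in the sources used here, so reads of overlapping genes on opposite strands cannot be told apart. Columns were assigned to mice by title, with 0 sample columns left over. Of 54532 identifiers, 54495 are in GENCODE M21 (GRCm38), 98.2% with the same position, and so were 9 of the 10 iron genes (all but Fth1). Gene lengths are as deposited in the table.

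ELA and control were compared with edgeR 4.0.16 in R 4.3.3: filterByExpr with a count minimum of 10, TMM, robust glmQLFit and glmQLFTest, and Benjamini-Hochberg adjusted p-values over 15909 genes, called at 0.05. Alternatives were limma 3.58.1 (voom) and DESeq2 1.42.0, which the study's methods name. Each was tested on simulated counts, where the share of false calls was well above the threshold in DESeq2 and slightly above it in edgeR and limma-voom. Standard errors and 95% intervals of log2 fold changes come from the quasi-likelihood F statistic and are not adjusted for the number of genes. Ratios used counts plus 0.5 and an exact permutation test over 126 arrangements. CPM and FPKM were computed here.

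The 10 genes and all lists (98 further iron genes, 97 matched on 1 row, and 80 marker entries, 79 matched) were chosen with earlier results of these data known. The text names all 10 genes and the ferritin copies. In each group of the wider list it names every gene past the adjusted p and the 3 with the smallest p. Ftmt, the 5 secretory-stage markers and the markers Hbb-bs, Col3a1, Lum and Postn were named after their values were seen. The title numbers are nested in the groups, so no value within a title number exists.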

Additional observations from a re-analysis of the deposited data

Results flagged for a closer look

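Tfrc in ELA mouse t-203-1-5 was the value that stood apart from its group: 181 CPM, against 329 to 379 CPM in the other 4 ELA mice and 183 to 238 CPM in the controls. The gap to the nearest ELA mouse was 0.745 of the range of the group, above Dixon's critical value of 0.71 for 5 samples. It was 1 of 26 sets of values examined (10 genes and 3 ratios in each group), and chance flags about 1 in 20.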

How the results depend on the processing

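None of the 10 iron genes passed the adjusted p in any of 21 alternative fits. Of 2 fits added after the data were seen, Tfrc passed in DESeq2 without ELA mouse t-203-1-5 (0.76). Tfrc, Slc11a2, Fth1, Ftl1 and Slc40a1 kept their sign in all 23. With mice or title numbers left out, the log2 fold changes that changed sign ranged from -0.58 to 0.14 for Trf, -0.16 to 0.30 for Steap3, -0.38 to 0.065 for Ncoa4, -0.039 to 0.12 for Ireb2 and -0.10 to 0.56 for Hmox1. With plain library totals Steap3 was at -0.027 and Ireb2 at -0.04. The log2 ratio differences ranged from -0.19 to 0.062 for Fth1 over Ftl1, 0.66 to 1.00 for Tfrc over Slc40a1 and 0.19 to 0.57 for Tfrc over Fth1. Both Tfrc ratios were past the adjusted p only without t-203-1-5, where the choice of that mouse fixes the permutation p at its smallest value. With the same mice left out, the log2 fold change of Fth1 ranged from 0.14 to 0.38 and that of Slc40a1 from -0.38 to -0.12. No gene of the wider iron list passed in any fit.

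Over all genes, 10 passed in edgeR, 138 in DESeq2 and 4 with plain library totals. Without a filter on low counts 38 passed, and 3 with counts summed over a title number. In limma-voom 9 passed, and 51 with the title number as a random effect. The estimated correlation of that random effect was negative, at -0.17. The standard error of Tfrc was 0.175 with it and 0.207 without it. The larger count is therefore not read as stronger evidence. With mice or title numbers left out, the edgeR count was 0 (such as without the c-204 mice) to 59 (without the t-205 mice). Without t-203-1-5 the count was 186 in DESeq2 and 2 in limma-voom. The cause of this spread was not tested. The Trf values rest on 20 to 46 reads per library. No paired analysis was possible because the groups hold different mice, and no label ties the last number of a title, which recurs in both groups, to a litter or batch.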

Other observations

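The levels of the 10 iron genes were also compared between title numbers within each group. Among the ELA mice, both t-205 mice were above all t-203 mice for Trf (mean 1.505 against 1.16 CPM), Steap3 (99.6 against 71.6 CPM) and Ncoa4 (189.9 against 139 CPM). Among the controls, both c-204 mice were above both c-202 mice for Trf (1.93 against 1.17 CPM), Ncoa4 (195.6 against 167 CPM) and Hmox1 (56.7 against 36.0 CPM). These are 3 of 10 genes in each group, where 18.6% of all genes tested separated the ELA title numbers and 25.6% the control title numbers in either direction, so nothing particular to the iron genes is read from these counts.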
